A study of Mus musculus with 54 samples.

Results

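The transcripts of 10 genes of the growth hormone and IGF1 axis were followed in the hearts and livers of mice that carry an error-prone or a hyper-accurate mutation of MRPS12, a protein of the small subunit of the mitochondrial ribosome. The genes were chosen by name from the 54356 genes of each table, and all 10 were found and passed the filter on low values in both tissues. They are the receptor *Ghr*, the signal transducer *Stat5b*, the feedback inhibitors *Socs2* and *Cish*, the hormone *Igf1*, the carriers *Igfals*, *Igfbp3* and *Igfbp2*, and the urinary protein genes *Mup3* and *Mup20*.

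Growth hormone from the pituitary binds its receptor GHR, which activates the kinase JAK2 and the transcription factors STAT5A and STAT5B. In the liver STAT5B switches on the gene for IGF1, the hormone that carries much of the growth signal in the blood, and the gene for the acid labile subunit IGFALS, which holds IGF1 and IGFBP3 together in a long-lived complex. STAT5 also induces SOCS2 and CISH, which damp the signal in return. In rodents the pulsed release of growth hormone in males sets a male pattern of liver genes, of which the major urinary proteins are the best known.

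The groups were *Mrps12+/+* mice as controls, *Mrps12ep/ep* mice with the error-prone mutation and *Mrps12ha/ha* mice with the hyper-accurate mutation, with 3 mice of each genotype in each tissue. All were male C57BL/6 mice aged 20 weeks on a high-fat diet with 42% of the energy from fat, 35% from carbohydrate and 23% from protein. The homozygous mutants came from crosses of heterozygous mice and were matched with littermates. The 54 libraries were 3 technical libraries for each mouse and tissue, and the tables hold 1 column for each mouse and tissue. RNA was taken from whole organs, and in such bulk samples fewer cells of a type and less RNA per cell cannot be told apart.

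On the scale of recovered reads a heart held 11202864 to 51480512 reads and a liver 21238166 to 81518015, and the shallowest heart was that of *Mrps12ha/ha* mouse 2. The heart of *Mrps12ha/ha* mouse 1 was the next, with 17916538 reads, while every *Mrps12+/+* and *Mrps12ep/ep* heart held at least 33825970. All 8 hepatocyte genes checked were above 0 in every liver, and all 6 cardiomyocyte genes in every heart. Some samples stood apart. The summed normalized count of 6 acute phase genes was 1604022 in the liver of *Mrps12+/+* mouse 3 and 176532 to 231647 in the other 8 livers. The livers of *Mrps12+/+* mice 1 and 2 held 14545 and 14854 normalized counts of skeletal muscle genes, against at most 118 in the other 7. The liver of *Mrps12ha/ha* mouse 3 held 7248 normalized counts of cardiomyocyte genes, against 29.2 to 493 in the other 8. Summed adipocyte genes were 3396 and 8188 in the livers of *Mrps12+/+* mice 2 and 3, against at most 1504 in the other livers. The heart of *Mrps12+/+* mouse 3 held 6523 of these, against at most 1232 in the other hearts. Summed erythroid genes were 121644 in the liver of *Mrps12ha/ha* mouse 1 and at most 63460 in the other livers. The summed hepatocyte genes were themselves lower in the *Mrps12+/+* livers, at 5098266 to 5924598, than in *Mrps12ep/ep* livers at 6323645 to 6886270 and *Mrps12ha/ha* livers at 6102249 to 6664776. The single genes did not all follow. *Ttr*, *Ahsg* and *Apoc3* were lower in *Mrps12+/+* than in *Mrps12ha/ha* livers without overlap. *Tat* was higher, at 126481 to 220456 against 47198 to 60991. *Alb*, *Apoa1*, *Fgb* and *Serpina1c* overlapped. The part of these differences in the results was not tested, and values that bear on it are given with the members.

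Levels were compared between genes as RPKM, given as medians over the 9 mice of a tissue. This is the reads of a gene scaled to the length of its exons and to the summed reads of the column. The deposited columns are without mitochondrial transcripts, so the levels in heart and liver are relative to the other transcripts only. In the liver *Mup3* led with 6939, followed by *Mup20* with 3874, *Igfbp2* with 87.3, *Ghr* with 54.3, *Igf1* with 45.1, *Igfals* with 21.3, *Igfbp3* with 9.24, *Stat5b* with 7.20, *Cish* with 1.73 and *Socs2* with 1.177. Over the 9 livers the ranges of neighbours in this order overlapped, except those of *Mup20* and *Igfbp2*, of *Igf1* and *Igfals*, of *Igfals* and *Igfbp3*, and of *Stat5b* and *Cish*. The heart showed another order, with *Ghr* at 21.02, *Stat5b* at 14.5, *Cish* at 12.9, *Igfbp3* at 11.8, *Mup3* at 8.71, *Mup20* at 5.66, *Socs2* at 4.50, *Igf1* at 1.69, *Igfals* at 0.962 and *Igfbp2* at 0.4002. Only *Socs2* and *Igf1* were neighbours in the heart whose ranges did not overlap. Both feedback inhibitors had higher median levels in the heart than in the liver on this scale, whereas the hormone and its carriers *Igfals* and *Igfbp2* had higher levels in the liver.

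The differences between genotypes were fitted with limma on log2 of the normalized count plus 1, and the Benjamini-Hochberg adjustment of p-values ran over all genes tested in a tissue. A log2 fold change of 1 is a doubling on this scale, which understates the change of low genes. None of the 10 members had an adjusted p under 0.05 in any of the 6 comparisons with limma, and limma-voom on the recovered reads called none either. With limma the unadjusted p was under 0.05 for 4 members between *Mrps12ha/ha* and *Mrps12+/+* livers, 2 between *Mrps12ha/ha* and *Mrps12ep/ep* livers, 1 between *Mrps12ha/ha* and *Mrps12+/+* hearts, 3 between *Mrps12ha/ha* and *Mrps12ep/ep* hearts and 0 in both comparisons of *Mrps12ep/ep* with *Mrps12+/+*. The differences below are therefore given as measured values with their intervals, and none is a called change.

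Of all 15314 genes tested in the liver, the adjusted p was under 0.05 for 0.00653% in each of the 3 comparisons. The unadjusted p was under 0.05 for 14.1% between *Mrps12ha/ha* and *Mrps12+/+*, 9.74% between *Mrps12ep/ep* and *Mrps12+/+* and 8.62% between the mutants. Between the 2 genotypes compared the values of the mice were without overlap in 19.9%, 12.8% and 17.8% of the genes in the same order. Of 16057 genes tested in the heart, 0.0311% were called between *Mrps12ha/ha* and *Mrps12+/+*, 0.0% between *Mrps12ep/ep* and *Mrps12+/+* and 0.0249% between the mutants. The unadjusted p was under 0.05 for 19.7%, 1.69% and 17.9%, and the groups did not overlap in 21.2%, 8.03% and 16.6%. An exact two-sided permutation test of 3 against 3 mice cannot go below 0.1, which it reaches where the groups do not overlap.

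In the livers of *Mrps12ha/ha* mice the feedback inhibitors *Socs2* and *Cish*, the carrier *Igfals* and the urinary protein gene *Mup3* had higher mean normalized counts than in *Mrps12+/+* livers, by 1.53 to 2.97 times, while *Igf1* itself was at 0.891 times. For *Socs2*, *Igfals* and *Mup3*, 3 of the 10 members, no *Mrps12ha/ha* mouse overlapped a *Mrps12+/+* mouse, against the 19.9% of all genes given above. The members had a median log2 fold change of 0.42 in this comparison, against -0.02 for all genes. This median was 0.22 without *Mrps12+/+* mouse 3 and 0.35 without *Mrps12ha/ha* mouse 2. Without *Mrps12+/+* mouse 3 the unadjusted p was under 0.05 for 4 members (11.8% of all genes) and 4 members did not overlap (29.5% of all genes), and without *Mrps12ha/ha* mouse 2 for 2 members (9.43%) and 4 did not overlap (28.2%), 3 higher and 1 lower.

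**Figure D1:**
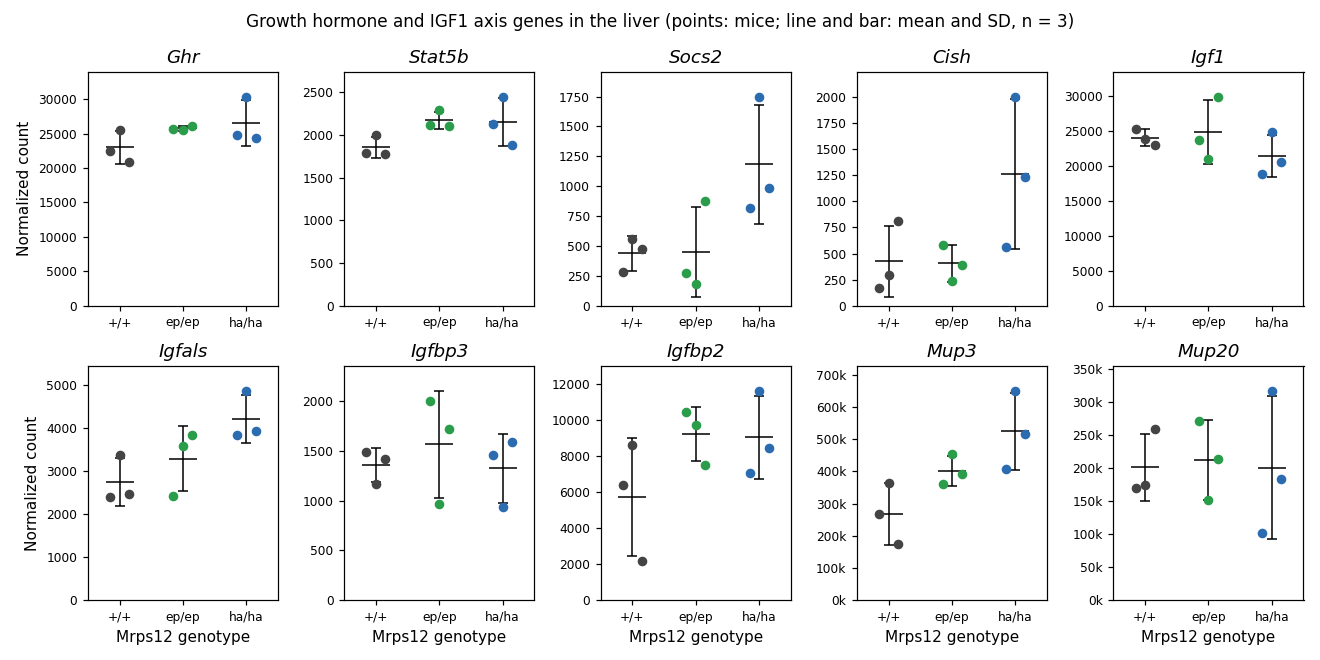
Normalized counts of the 10 genes in the liver (y axis, each panel starting at 0, with k for 1000) by genotype (x axis); points are mice, the line and bar are the mean and SD of 3 mice. The 3 *Mrps12ha/ha* mice lie above the 3 *Mrps12+/+* mice for *Socs2*, *Igfals* and *Mup3*, and *Igf1* spans 18888 to 29896 normalized counts with overlapping groups.

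The receptor gene *Ghr* (chromosome 15, 3317760 to 3583492, minus strand, GRCm38) was the steadiest of the abundant members in the liver. Its normalized counts were 22497, 25579 and 20860 in the *Mrps12+/+* livers, 25621, 25485 and 26134 in the *Mrps12ep/ep* livers and 24857, 30317 and 24402 in the *Mrps12ha/ha* livers. All 9 values lay within a range of 1.45 times and each pair of groups overlapped. The log2 fold change of *Mrps12ha/ha* against *Mrps12+/+* was 0.21 (95% interval -0.07 to 0.48, adjusted p = 0.476 with limma), that of *Mrps12ep/ep* against *Mrps12+/+* was 0.17 (-0.10 to 0.44) and that between the mutants was 0.04 (-0.24 to 0.31).

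*Stat5b* (chromosome 11, 100780731 to 100850724, minus strand), which encodes the main STAT5 protein of hepatocytes, measured 1791, 1997 and 1772 normalized counts in *Mrps12+/+* livers, 2114, 2286 and 2106 in *Mrps12ep/ep* livers and 2123, 2444 and 1878 in *Mrps12ha/ha* livers. The *Mrps12ep/ep* mice all lay above the *Mrps12+/+* mice, and *Stat5b* was the 1 member of 10 (10.0%, against the 12.8% of all genes) whose groups did not overlap in that comparison. In log2 the fold change was 0.23 (95% interval -0.02 to 0.48, adjusted p = 0.534 with limma). Divided by the summed hepatocyte genes of the same liver, *Stat5b* ranged from 0.302 to 0.363 per 1000 hepatocyte counts in *Mrps12+/+* and from 0.307 to 0.362 in *Mrps12ep/ep* mice, and the groups overlapped.

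*Socs2* (chromosome 10, 95385362 to 95417180, minus strand) encodes a suppressor of cytokine signalling that binds the growth hormone receptor. Its normalized counts were 281, 562.0 and 473 in *Mrps12+/+* livers, 278, 185 and 879 in *Mrps12ep/ep* livers and 814, 1747 and 989 in *Mrps12ha/ha* livers. The *Mrps12ha/ha* livers all lay above the *Mrps12+/+* livers, and *Mrps12ep/ep* mouse 3 lay among the *Mrps12ha/ha* livers. The means were 439 ± 143, 447 ± 377 and 1183 ± 496 (SD, n = 3 mice each). *Socs2* was 2.70 times higher in *Mrps12ha/ha* than in *Mrps12+/+* livers, on the log2 scale 1.41 (95% interval 0.20 to 2.61, unadjusted p = 0.0265, adjusted p = 0.295 with limma, 0.191 to 0.592 over the alternatives). Against *Mrps12ep/ep* the log2 fold change was 1.65 (0.45 to 2.86, adjusted p = 0.495), and that of *Mrps12ep/ep* against *Mrps12+/+* was -0.24 (-1.45 to 0.96). Per 1000 hepatocyte counts *Socs2* was 0.0475 to 0.102 in *Mrps12+/+* and 0.128 to 0.286 in *Mrps12ha/ha* livers, which again did not overlap.

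*Cish* (chromosome 9, 107296026 to 107302784, plus strand) encodes another SH2 protein of this family that docks on activated cytokine receptors. Its promoter is shown because *Cish* is a textbook STAT5 target and STAT5 binds the palindrome TTCNNNGAA, which reads the same on both strands. RefSeq gives a transcript start at 107296659 on GRCm38.p6, and the stretch around it at chr9:107296654-107296683, plus strand, holds the palindrome at 2 places, printed in capitals.
Cish: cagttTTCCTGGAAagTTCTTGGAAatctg
The first of these begins at the start itself and the second 11 bases further on. Of 32851 RefSeq windows from 250 bases before to 50 after a start, 8.30% hold the palindrome at least once. *Socs2* and *Mup20* were not among the 8 members matched, and besides *Cish* only *Igfals* held a match among them. A match in these letters is a description of the sequence, and binding was not measured.

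*Cish* measured 174, 292 and 810.4 normalized counts in *Mrps12+/+* livers, 586, 236 and 393 in *Mrps12ep/ep* livers and 562, 1998 and 1231 in *Mrps12ha/ha* livers. *Mrps12+/+* mouse 3, the mouse with the high acute phase genes, lay above the lowest *Mrps12ha/ha* mouse, so that the groups overlapped. Between *Mrps12ha/ha* at 1264 ± 719 and *Mrps12+/+* at 426 ± 338 (SD, n = 3) the means differed 2.97 times, with a log2 fold change of 1.69 (95% interval 0.31 to 3.06, unadjusted p = 0.0214, adjusted p = 0.278 with limma, 0.121 to 0.575 over the alternatives). Without *Mrps12+/+* mouse 3 it was 2.30 (adjusted p = 0.121). *Mrps12ep/ep* livers had a mean of 405 ± 175, at a log2 fold change of 0.13 from *Mrps12+/+* (-1.24 to 1.504) and 1.55 below *Mrps12ha/ha* (0.18 to 2.93, adjusted p = 0.546). Both feedback inhibitors had their highest mean in the *Mrps12ha/ha* livers. They also spread more over the 9 livers than the other 8 members did, 9.45 times between the lowest and the highest liver for *Socs2* and 11.5 times for *Cish*, against 1.38 times for *Stat5b*.

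*Igf1* (chromosome 10, 87858265 to 87937042, plus strand), the hormone whose blood level comes largely from hepatocytes, did not follow the inhibitors. Its normalized counts were 25340, 23899 and 23000 in *Mrps12+/+*, 23670, 21040 and 29896 in *Mrps12ep/ep* and 18888, 24831 and 20628 in *Mrps12ha/ha* livers. The ranges of all 3 genotypes overlapped, and 2 of the 3 *Mrps12ha/ha* livers lay below every *Mrps12+/+* liver. The log2 fold change of *Mrps12ha/ha* against *Mrps12+/+* was -0.18 (95% interval -0.52 to 0.16, adjusted p = 0.634 with limma). Per 1000 hepatocyte counts *Igf1* was 4.28 to 4.51 in *Mrps12+/+* and 2.96 to 4.07 in *Mrps12ha/ha* livers, without overlap. This gap arose only after the division, by a sum whose genes did not all move alike.

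*Igfals* (chromosome 17, 24865997 to 24882010, plus strand), the gene of the acid labile subunit, is transcribed mainly in hepatocytes. RefSeq gives it 3 starts in these windows, of which 2 have the STAT5 palindrome upstream. Both stretches are shown because they place the palindrome at different distances from a start, 58 bases before the start at 24878231 in chr17:24877981-24878230 and 236 bases before the start at 24877844 in chr17:24877594-24877843, both on the plus strand with the palindrome in capitals.
Igfals, 58 bases: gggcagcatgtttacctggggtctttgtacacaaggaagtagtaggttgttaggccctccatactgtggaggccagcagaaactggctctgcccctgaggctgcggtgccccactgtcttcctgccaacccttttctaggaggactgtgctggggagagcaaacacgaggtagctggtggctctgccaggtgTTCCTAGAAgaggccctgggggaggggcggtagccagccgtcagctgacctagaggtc
Igfals, 236 bases: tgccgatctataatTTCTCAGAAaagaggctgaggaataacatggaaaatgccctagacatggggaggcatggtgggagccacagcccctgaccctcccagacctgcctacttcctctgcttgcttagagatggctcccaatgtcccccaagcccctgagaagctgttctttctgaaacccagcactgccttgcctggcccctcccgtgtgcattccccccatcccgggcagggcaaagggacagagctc

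The *Igfals* normalized counts were 2391, 3383 and 2462 in *Mrps12+/+* livers, 2425, 3576 and 3851 in *Mrps12ep/ep* livers and 3839, 4851 and 3922 in *Mrps12ha/ha* livers. The *Mrps12ha/ha* livers lay above every *Mrps12+/+* liver, and the *Mrps12ep/ep* livers spanned the gap. The means of 4204 ± 562 and 2746 ± 553 (SD, n = 3) differed 1.53 times, with a log2 fold change of 0.62 (95% interval 0.18 to 1.07, unadjusted p = 0.0109, adjusted p = 0.227 with limma, 0.114 to 0.519 over the alternatives). Per 1000 hepatocyte counts *Igfals* was 0.404 to 0.616 in *Mrps12+/+* and 0.588 to 0.795 in *Mrps12ha/ha* livers, so that the groups then overlapped.

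The binding proteins behaved differently from each other. *Igfbp3* (chromosome 11, 7206086 to 7213923, minus strand), which binds most of the IGF1 in blood together with IGFALS and is made by the non-parenchymal cells of the liver, measured 1483, 1162 and 1415 normalized counts in *Mrps12+/+*, 1998, 970 and 1720 in *Mrps12ep/ep* and 1461, 933 and 1584 in *Mrps12ha/ha* livers. The groups overlapped throughout, and the log2 fold change of *Mrps12ha/ha* against *Mrps12+/+* was -0.06 (95% interval -0.69 to 0.57). *Igfbp2* (chromosome 1, 72824503 to 72852474, plus strand), a binding protein of hepatocytes that is high in fasting, measured 6381, 8618 and 2190 in *Mrps12+/+*, 10437, 9747 and 7537 in *Mrps12ep/ep* and 7062, 11605 and 8474 in *Mrps12ha/ha* livers. The lowest *Igfbp2* value belonged to *Mrps12+/+* mouse 3, the mouse with the high acute phase genes. *Igfbp2* had a log2 fold change of 0.84 for *Mrps12ha/ha* (-0.13 to 1.81, adjusted p = 0.416 with limma) and 0.89 for *Mrps12ep/ep* against *Mrps12+/+* (-0.08 to 1.86, adjusted p = 0.535), comparisons that share the same *Mrps12+/+* mice. Without *Mrps12+/+* mouse 3 the *Mrps12ha/ha* value was 0.26.

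*Mup3* (chromosome 4, 62083476 to 62087342, minus strand) and *Mup20* (chromosome 4, 62050234 to 62054158, minus strand) lie in a cluster of near-identical genes, and the authors' quantification could split shared reads among copies, so the value of any 1 copy is uncertain. The proteins carry pheromones in the urine, and the *Mup20* product is known as darcin. *Mup3* measured 266603, 364084 and 173763 normalized counts in *Mrps12+/+* livers, 361625, 453773 and 391517 in *Mrps12ep/ep* livers and 406741, 648353 and 517076 in *Mrps12ha/ha* livers. Every *Mrps12ha/ha* liver exceeded every *Mrps12+/+* liver in *Mup3*, and *Mrps12+/+* mouse 3 was the lowest. The log2 fold change of 1.01 (95% interval 0.28 to 1.73, unadjusted p = 0.0118, adjusted p = 0.232 with limma, 0.119 to 0.520 over the alternatives) was 0.72 without that mouse. Per 1000 hepatocyte counts *Mup3* was 34.1 to 66.2 in *Mrps12+/+* and 63.7 to 106.2 in *Mrps12ha/ha* livers, which overlapped.

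*Mup20* did not share that order. It measured 170604, 173911 and 259543 normalized counts in *Mrps12+/+*, 271856, 151969 and 213734 in *Mrps12ep/ep* and 101487, 316379 and 184248 in *Mrps12ha/ha* livers, and the *Mrps12ha/ha* livers held both the lowest and the highest value. Its log2 fold change was -0.13 (95% interval -1.04 to 0.78, adjusted p = 0.920 with limma). As a share of all counts on the 22 *Mup* genes, *Mup20* took 7.40% to 17.4% in *Mrps12+/+*, 6.88% to 16.1% in *Mrps12ep/ep* and 5.21% to 6.10% in *Mrps12ha/ha* livers.

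The whole *Mup* cluster took 2.72% to 4.69% of the normalized counts of *Mrps12+/+* livers, 3.33% to 4.72% of *Mrps12ep/ep* livers and 3.85% to 9.32% of *Mrps12ha/ha* livers. Of the 22 genes 21 were tested in the liver, none was called by limma, and 14 had an unadjusted p under 0.05 between *Mrps12ha/ha* and *Mrps12+/+*, all of them higher in *Mrps12ha/ha*, where 14.1% of all genes had one in either direction. The median log2 fold change of the tested *Mup* genes was 1.27, against -0.02 for all genes. Copies that share reads are not separate observations. The highest cluster total, 5183242 normalized counts, was that of *Mrps12ha/ha* mouse 2, and without this mouse the *Mup* genes with an unadjusted p under 0.05 numbered 3 and their median was 0.84. Without *Mrps12+/+* mouse 3 they numbered 5, with a median of 1.02. *Mup7*, a gene named here after its values were seen, measured 89774, 211801 and 30934 normalized counts in *Mrps12+/+* and 194628, 1341686 and 537384 in *Mrps12ha/ha* livers, which overlapped.

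**Figure D2:**
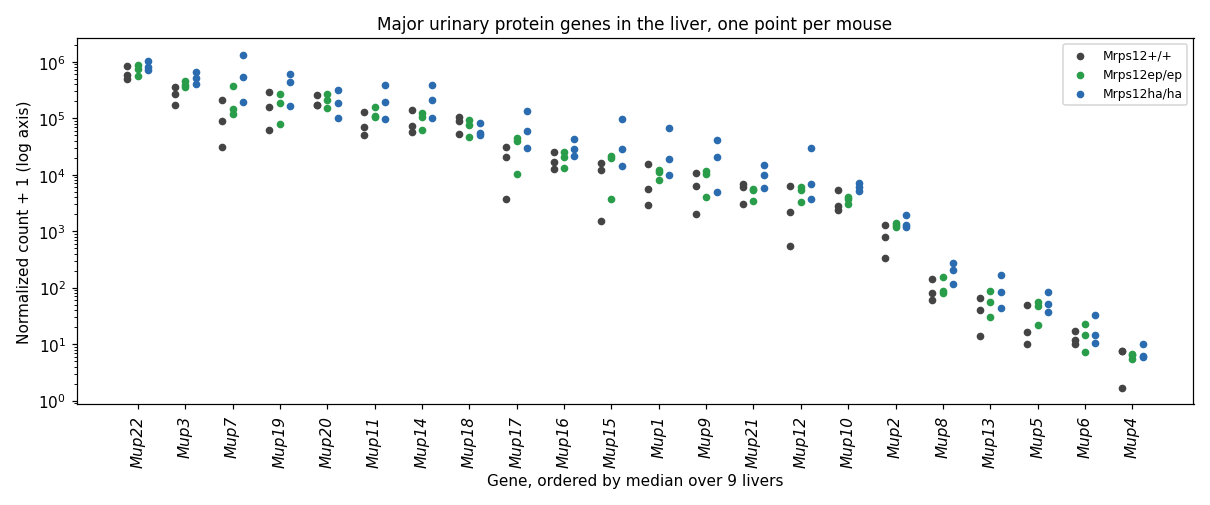
Normalized counts plus 1 (y axis, log scale) of the 22 *Mup* genes (x axis, ordered by their median over 9 livers), with 1 point for each mouse. For most of the genes the *Mrps12ha/ha* points reach highest, and *Mup20* and *Mup18* have *Mrps12ha/ha* points among their lowest.

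Other genes of the pathway were taken from a list of 40 receptors, kinases, phosphatases, STAT and SOCS proteins, IGF-binding proteins and regulators, of which 36 were tested in the liver. None was called by limma in the liver, and 5 had an unadjusted p under 0.05 between *Mrps12ha/ha* and *Mrps12+/+* livers, 2 higher and 3 lower, close to the 14.1% of all genes, with a list median of -0.07 against -0.02 for all genes. *Igfbp1*, an IGF-binding protein that insulin represses in hepatocytes, measured 12192, 4850.1 and 22518 normalized counts in *Mrps12+/+*, 12973, 7486 and 6350 in *Mrps12ep/ep* and 2521, 2132 and 3731 in *Mrps12ha/ha* livers. The *Mrps12ha/ha* livers were below those of both other genotypes in *Igfbp1*, with log2 fold changes of -2.02 ± 0.50 (SE) against *Mrps12+/+* (adjusted p = 0.150 with limma) and -1.65 ± 0.50 against *Mrps12ep/ep* (adjusted p = 0.459). Without *Mrps12+/+* mouse 2, the lowest *Mrps12+/+* liver for this gene, the former was -2.61 with an adjusted p of 0.0377. That fit called 90 of all 15314 genes. With any other mouse of the comparison left out the adjusted p was 0.191 to 0.405 with limma.

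*Bcl6*, a transcriptional repressor that is known to share sites with STAT5 in the liver, measured 2949, 848 and 1040.3 normalized counts in *Mrps12+/+*, 655, 1965 and 3354 in *Mrps12ep/ep* and 588, 502 and 452 in *Mrps12ha/ha* livers. The *Mrps12ha/ha* livers were again the lowest of the 9, with log2 fold changes of -1.43 ± 0.59 (SE) against *Mrps12+/+* (adjusted p = 0.327 with limma) and -1.67 ± 0.59 against *Mrps12ep/ep* (adjusted p = 0.509). *Ptpn11*, the gene of the phosphatase SHP2, was 1.13 times lower in *Mrps12ha/ha* than in *Mrps12+/+* livers, without overlap (log2 fold change -0.18 ± 0.09, adjusted p = 0.416 with limma). In *Mrps12ep/ep* livers *Irs1*, an adaptor of the insulin and IGF1 receptors, had a log2 fold change of 0.57 ± 0.28 against *Mrps12+/+* (adjusted p = 0.536), with 829.8 and 810.2 normalized counts in *Mrps12+/+* mice 1 and 2 but 357 in mouse 3.

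Liver genes with a male or a female bias were checked because growth hormone pulses set that bias. Of 16 male-biased genes all were tested and none was called by limma. Between *Mrps12ha/ha* and *Mrps12+/+* livers 2 had an unadjusted p under 0.05, beside 14.1% of all genes. The median log2 fold change was 0.28, which became -0.04 without *Mrps12+/+* mouse 3. *Cyp2d9*, a male-specific steroid hydroxylase, measured 57999, 84590.4 and 70419 normalized counts in *Mrps12ha/ha* and 30997, 54929 and 43430 in *Mrps12ep/ep* livers, a log2 fold change of 0.74 ± 0.34 (SE) without overlap (adjusted p = 0.598). The *Mrps12+/+* livers, at 24691, 62624 and 31148, overlapped both mutants in *Cyp2d9*. *Cyp4a12a*, another male-specific cytochrome P450 gene, was 1.99 times lower in *Mrps12ep/ep* than in *Mrps12+/+* livers, at 8006 ± 790 against 15970 ± 3309 normalized counts (SD, n = 3, adjusted p = 0.481). The *Mrps12ha/ha* livers measured 5486, 15740 and 19286 for *Cyp4a12a*, the first of which was the lowest of all livers. *Gstp1*, a glutathione transferase, was 1.57 times higher in *Mrps12ep/ep* than in *Mrps12+/+* livers (adjusted p = 0.471).

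Of 16 female-biased genes 10 passed the filter in these male livers. None of them was called by limma, 3 had an unadjusted p under 0.05 between *Mrps12ha/ha* and *Mrps12+/+* livers, all higher, beside 14.1% of all genes, and 4 were higher without overlap, beside 19.9%. In sign the 10 tested genes were split, with 5 higher and 5 lower. *Cyp2b13*, a female-biased cytochrome P450 gene with close paralogs, measured 7.0, 40.4 and 32.6 normalized counts in *Mrps12+/+*, 29.8, 744 and 24.4 in *Mrps12ep/ep* and 695, 161 and 224 in *Mrps12ha/ha* livers. *Cyp2b13* was above every *Mrps12+/+* value in all 3 *Mrps12ha/ha* livers and in 1 *Mrps12ep/ep* liver, with a log2 fold change of 3.72 ± 1.23 (SE) for *Mrps12ha/ha* against *Mrps12+/+* (adjusted p = 0.245). *Acot3*, a peroxisomal thioesterase gene, was 4.03 times higher in *Mrps12ha/ha* than in *Mrps12+/+* livers (adjusted p = 0.312) and 3.42 times higher than in *Mrps12ep/ep* livers (adjusted p = 0.540). *Hao2*, a hydroxyacid oxidase gene, was higher than in *Mrps12+/+* livers in both mutants without overlap, by 3.59 times in *Mrps12ha/ha* (adjusted p = 0.188) and 4.26 times in *Mrps12ep/ep* (adjusted p = 0.348), comparisons that share the *Mrps12+/+* mice. *Cyp2a4*, which has a near-identical paralog, went the other way between the mutants, at 469, 19.8 and 129 normalized counts in *Mrps12ha/ha* and 1059, 634 and 1489 in *Mrps12ep/ep* livers (log2 fold change -3.21 ± 1.05, adjusted p = 0.495 with limma). Its size depended on single livers, at -2.02 without *Mrps12ha/ha* mouse 2 and -4.27 without mouse 1, and that of *Cyp2b13* was 2.98 without *Mrps12+/+* mouse 1. *Cyp2a4* and *Cyp2b13* belong to the *Cyp2a* and *Cyp2b* cluster near *Mrps12* itself. The part of sequence differences around the mutated gene in their values was not tested.

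**Figure D3:**
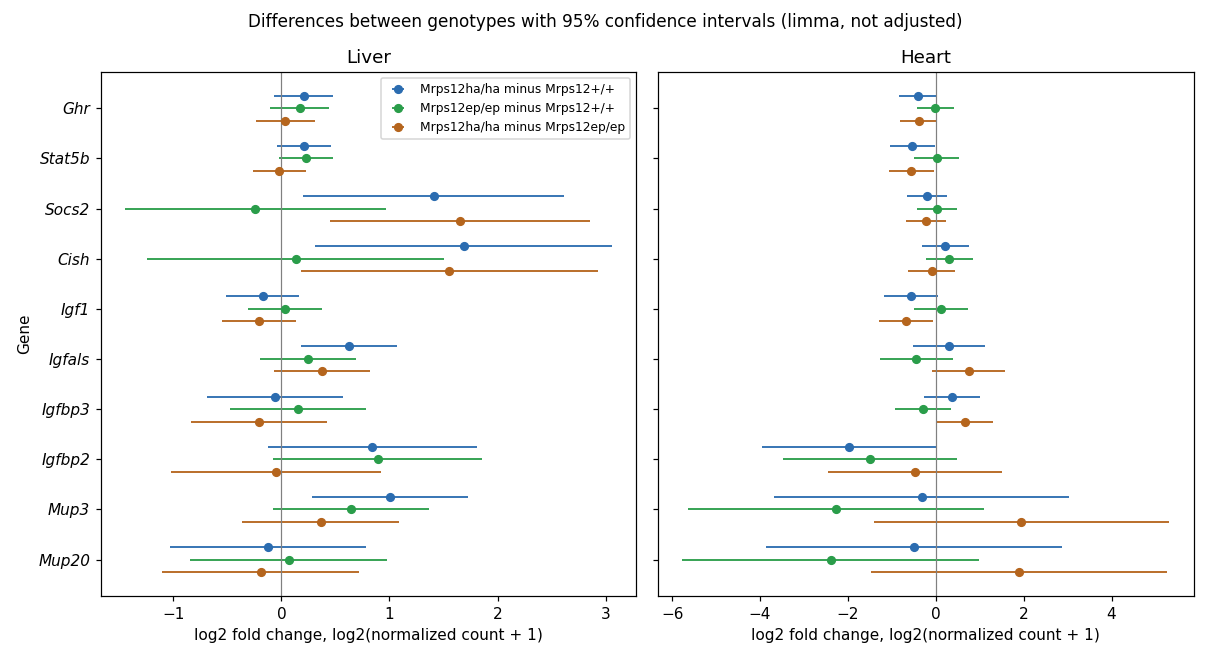
Log2 fold changes of the 10 genes (y axis) between genotypes in the liver (left) and the heart (right), on the log2(normalized count + 1) scale (x axis, which spans a wider range in the heart), with 95% intervals from limma that are not adjusted for the number of genes. In the liver the *Socs2* and *Cish* values of *Mrps12ha/ha* lie to the right of 0 against both other genotypes, and in the heart *Mup3* and *Mup20* have the widest intervals.

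In the hearts of *Mrps12ha/ha* mice *Ghr*, *Stat5b* and *Igf1* had lower means than in *Mrps12+/+* hearts, by 1.28 to 1.47 times, and the inhibitors *Socs2* and *Cish* were at 0.873 and 1.17 times. Between *Mrps12ha/ha* and *Mrps12+/+* hearts 2 of the 10 members, *Igf1* and *Igfbp2*, did not overlap, which is 20.0% against the 21.2% of all genes, and 1 member, *Stat5b*, had an unadjusted p under 0.05. The median log2 fold change of the members was -0.36, against -0.02 for all genes. No member was without overlap in the other 2 comparisons of the heart. Calls in these comparisons depended on *Mrps12ha/ha* mouse 2, the shallowest heart. Without it 8 members did not overlap between *Mrps12ha/ha* and *Mrps12+/+*, 1 higher and 7 lower, beside 58.3% of all genes. When it was left out limma called *Ghr* and *Stat5b* between *Mrps12ha/ha* and *Mrps12+/+* hearts, where it then called 27% of all genes, and the same 2 members between the mutants, where it called 23.2%. When each heart was given its own weight it called *Ghr*, *Stat5b* and *Igf1* in the former comparison, among 34.7% of all genes, and *Ghr*, *Stat5b* and *Igfbp3* in the latter, among 39.3%.

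Some sums of marker genes also differed between genotypes in the hearts. Summed cardiomyocyte genes were 2484220 to 3317274 normalized counts in *Mrps12ha/ha* and 2094239 to 2417229 in *Mrps12+/+* hearts, without overlap. The single genes did not all follow. *Myl2* was higher in *Mrps12ha/ha* hearts, at 352200 to 380504 against 263436 to 309290. *Ryr2* was lower, at 16285 to 44622 against 47154 to 53594. *Myh6*, *Myl3*, *Tnnt2* and *Actc1* overlapped. Whether the cell makeup differed was not tested. Summed skeletal muscle genes, of which the heart expresses some itself, were 3002 to 3352 in *Mrps12ha/ha* hearts, below the 7024 to 37669 of *Mrps12+/+* and the 6974 to 10560.0 of *Mrps12ep/ep* hearts. Summed atrial genes, which overlapped, were 4551 to 10279 in *Mrps12ha/ha* hearts, 8108 to 162740 in *Mrps12+/+* hearts and 1682 to 377881 in *Mrps12ep/ep* hearts. Summed erythroid genes, which also overlapped, were 127554 to 940224 in *Mrps12ha/ha* hearts, 58974 to 151658 in *Mrps12+/+* hearts and 86004 to 140230.2 in *Mrps12ep/ep* hearts. Their part in the values of the members was not tested.

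**Figure D4:**
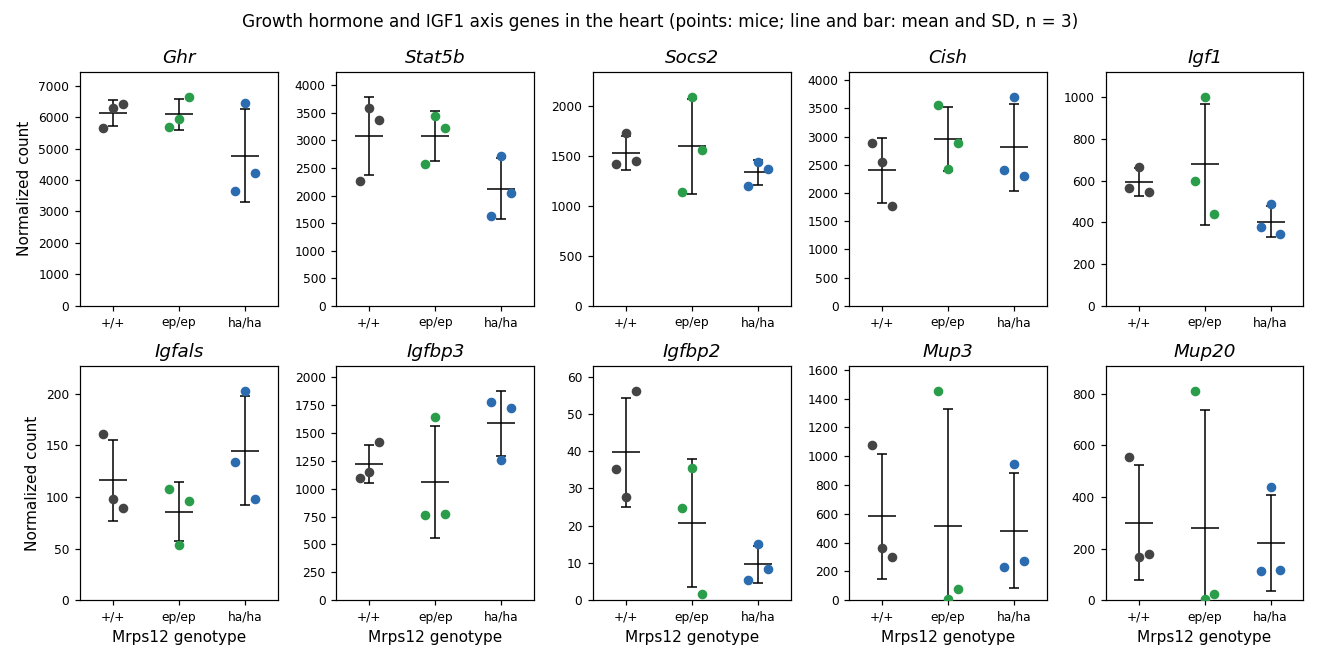
Normalized counts of the 10 genes in the heart (y axis, each panel starting at 0) by genotype (x axis); points are mice, the line and bar are the mean and SD of 3 mice, and bars are cut at 0. The *Mrps12ha/ha* mice lie below the *Mrps12+/+* mice for *Igf1* and *Igfbp2*, and 1 *Mrps12ha/ha* mouse lies apart from the other 2 for *Ghr*.

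*Ghr* measured 5655, 6282 and 6430.4 normalized counts in *Mrps12+/+* hearts, 5696, 5935 and 6642 in *Mrps12ep/ep* hearts and 3658, 6439 and 4225 in *Mrps12ha/ha* hearts. The *Mrps12ha/ha* hearts of mice 1 and 3 lay below the other 6 hearts, and that of mouse 2 lay within them. Mouse 3 held 47813556 reads, but mouse 1 held 17916538, fewer than any *Mrps12+/+* or *Mrps12ep/ep* heart. Against *Mrps12+/+* the log2 fold change was -0.40 (95% interval -0.83 to 0.03, adjusted p = 0.270 with limma) and was -0.64 without mouse 2 (adjusted p = 0.00632). Between *Mrps12ep/ep* and *Mrps12+/+* hearts it was -0.01 (-0.44 to 0.42).

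*Stat5b* measured 2265, 3592 and 3373 normalized counts in *Mrps12+/+*, 2571, 3450 and 3223 in *Mrps12ep/ep* and 1620, 2709 and 2039 in *Mrps12ha/ha* hearts. Its *Mrps12ha/ha* mouse 2 lay above the lowest heart of each other genotype, so that the groups overlapped. The log2 fold change was -0.54 against *Mrps12+/+* (95% interval -1.05 to -0.03, unadjusted p = 0.0413, adjusted p = 0.240 with limma) and -0.56 against *Mrps12ep/ep* (-1.07 to -0.05, adjusted p = 0.265). Without *Mrps12ha/ha* mouse 2 these were -0.73 (adjusted p = 0.0401) and -0.75 (adjusted p = 0.0408).

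*Igf1*, which in the heart comes from resident cells and acts locally, measured 563, 668 and 543 normalized counts in *Mrps12+/+*, 597, 1002 and 440 in *Mrps12ep/ep* and 379, 486 and 344 in *Mrps12ha/ha* hearts. All 3 *Mrps12ha/ha* hearts were below the *Mrps12+/+* hearts, and *Mrps12ep/ep* mouse 3 lay among them. The means of 403 ± 74.2 and 592 ± 66.9 (SD, n = 3) differed with a log2 fold change of -0.56 (95% interval -1.17 to 0.05, adjusted p = 0.275 with limma, 0.0379 to 0.572 over the alternatives). The fibroblast genes checked summed to 38026 to 39158 normalized counts in *Mrps12ha/ha*, 39691 to 51724 in *Mrps12+/+* and 37493 to 71004 in *Mrps12ep/ep* hearts. The sum was thus also lower in *Mrps12ha/ha* than in *Mrps12+/+* hearts without overlap, and its part in the *Igf1* values was not tested.

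The inhibitors were close between genotypes in the heart. *Socs2* measured 1415, 1725 and 1443 normalized counts in *Mrps12+/+*, 1140.2, 2088 and 1555 in *Mrps12ep/ep* and 1195, 1438 and 1370.0 in *Mrps12ha/ha* hearts. *Cish* measured 2890, 2557 and 1770 in *Mrps12+/+*, 3558, 2424 and 2886 in *Mrps12ep/ep* and 2415, 3703 and 2307 in *Mrps12ha/ha* hearts. The log2 fold changes of *Mrps12ha/ha* against *Mrps12+/+* hearts were -0.19 for *Socs2* (95% interval -0.65 to 0.26) and 0.22 for *Cish* (-0.32 to 0.76). Whether these differences are unlike those in the liver was not tested.

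*Igfbp3*, which endothelial cells make in the heart, measured 1097, 1146 and 1418 normalized counts in *Mrps12+/+*, 768, 1641 and 769 in *Mrps12ep/ep* and 1773, 1253 and 1725 in *Mrps12ha/ha* hearts. The groups overlapped, and the log2 fold changes of *Mrps12ha/ha* were 0.37 against *Mrps12+/+* (95% interval -0.27 to 1.01) and 0.66 against *Mrps12ep/ep* (0.02 to 1.30, unadjusted p = 0.0438, adjusted p = 0.273 with limma). Summed endothelial genes ranged from 30966 to 37467 normalized counts in *Mrps12+/+*, from 37518 to 43185 in *Mrps12ep/ep* and from 36667 to 56353 in *Mrps12ha/ha* hearts, and their part in the *Igfbp3* values was not tested.

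*Igfbp2* was near the limit of detection in the heart, with 41, 32 and 89 recovered reads in *Mrps12+/+*, 25, 61 and 2 in *Mrps12ep/ep* and 3, 5 and 12 in *Mrps12ha/ha* hearts. In normalized counts these were 35.3, 27.7 and 56.0, then 24.8, 35.4 and 1.8, then 5.5, 15.1 and 8.3. The *Mrps12ha/ha* hearts were below every *Mrps12+/+* heart in normalized counts (log2 fold change -1.98, 95% interval -3.96 to 0.01, adjusted p = 0.254 with limma). With counts this low in the mutant the size of the difference is poorly determined.

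The liver genes *Mup3*, *Mup20* and *Igfals* were detected in every heart, and *Mup3* and *Mup20* varied together. *Mup3* measured 1079.9, 364 and 301 normalized counts in *Mrps12+/+*, 1449, 8.1 and 79.0 in *Mrps12ep/ep* and 234, 942 and 274 in *Mrps12ha/ha* hearts. *Mup20* measured 556, 169 and 177 in *Mrps12+/+*, 808, 4.6 and 24.5 in *Mrps12ep/ep* and 114, 438 and 117 in *Mrps12ha/ha* hearts. For both genes the mice of one genotype differed by more than the genotypes did, 179 times between the lowest and the highest heart for *Mup3* and 176 times for *Mup20*, and both extremes were *Mrps12ep/ep* hearts.

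The 8 hepatocyte genes together measured 1514 to 16408 normalized counts in the hearts, and the 3 hearts with the highest sums, *Mrps12ha/ha* mouse 2, *Mrps12+/+* mouse 1 and *Mrps12ep/ep* mouse 1, were also the 3 highest for *Mup3* and *Mup20*. Per 1000 hepatocyte counts *Mup3* was 3.36 to 108.7 in the hearts and 34.1 to 106.2 in the livers, and 7 of the 9 hearts lay within the range of the livers. *Mup20* per count of *Mup3* was 0.310 to 0.589 in the hearts and 0.250 to 1.49 in the livers. *Igfals* ranged less than these, with 161, 97.8 and 89.3 normalized counts in *Mrps12+/+*, 108, 53.4 and 96.3 in *Mrps12ep/ep* and 134, 202 and 98.2 in *Mrps12ha/ha* hearts, a range of only 3.79 times. Per 1000 hepatocyte counts *Igfals* was 8.10 to 63.6 in the hearts and 0.352 to 0.795 in the livers, so that every heart lay above every liver. The 2 hearts highest in the hepatocyte sum, *Mrps12ha/ha* mouse 2 and *Mrps12+/+* mouse 1, were also the 2 highest in *Igfals*, and over the 9 hearts *Igfals* had r = 0.79 with *Mup3* and 0.76 with *Mup20*, as a description.

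**Figure D5:**
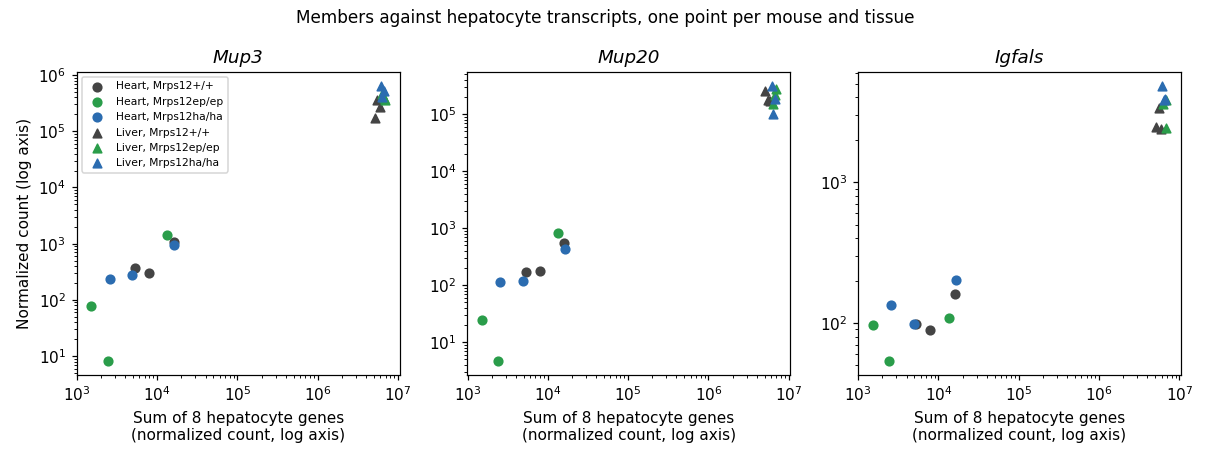
Normalized counts of *Mup3*, *Mup20* and *Igfals* (y axis, log scale) against the summed normalized counts of 8 hepatocyte genes (x axis, log scale), with 1 point for each mouse and tissue, circles for hearts and triangles for livers. The hearts of *Mup3* and *Mup20* run from low to high with the hepatocyte sum, apart from an *Mrps12ep/ep* heart at 8.1 and 4.6, while *Igfals* stays between 53.4 and 202 over all hearts, with its 2 highest values in the 2 hearts highest in the sum.

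Of the 40 other pathway genes 35 were tested in the heart. Between *Mrps12ha/ha* and *Mrps12+/+* hearts 1 was called, *Irs2*, the adaptor of the insulin and IGF1 receptors, which fell from 1056 ± 178 to 311 ± 45.8 normalized counts (SD, n = 3, log2 fold change -1.76, adjusted p = 0.0291 with limma). The call was lost without any single mouse of the comparison other than *Mrps12ha/ha* mouse 2, with adjusted p-values of 0.0860 without *Mrps12ha/ha* mouse 3 to 0.134 without *Mrps12+/+* mouse 3, while the log2 fold change stayed between -1.84 and -1.62. The call was also lost with the replicate number as a block (adjusted p = 0.0794) and with limma-voom (0.0916). *Irs2* was 2.41 times lower in *Mrps12ha/ha* than in *Mrps12ep/ep* hearts (adjusted p = 0.157). In all 7 pathway genes had an unadjusted p under 0.05 against *Mrps12+/+*, all of them lower in *Mrps12ha/ha*, and 10 against *Mrps12ep/ep*, again all lower, beside 19.7% and 17.9% of all genes in either direction. The list medians were -0.25 and -0.22, against -0.02 for all genes in both.

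Among the other pathway genes *Bcl6* was lower in *Mrps12ha/ha* than in *Mrps12+/+* hearts, as it was in the livers, at 921 ± 257 against 1627 ± 201.3 normalized counts (SD, n = 3, log2 fold change -0.85 ± 0.23 SE, adjusted p = 0.191 with limma). *Igfbp5*, a binding protein of stromal and muscle cells, measured 4488, 5916 and 5816 in *Mrps12ha/ha* and 9219, 11008 and 10113 in *Mrps12+/+* hearts (log2 fold change -0.91 ± 0.45, adjusted p = 0.278). *Socs1*, a further inhibitor of JAK kinases, was the 1 pathway gene that was higher without overlap, at 27.3 ± 3.65 against 15.5 ± 2.94 normalized counts (adjusted p = 0.264). Its values rest on few recovered reads, 17, 8 and 38 in *Mrps12ha/ha* and 22, 16 and 22 in *Mrps12+/+* hearts. Of the 35 pathway genes 7 were lower without overlap in this comparison, where 21.2% of all genes did not overlap in either direction. *Stat5a*, the close relative of *Stat5b*, was 1.35 times lower in *Mrps12ha/ha* than in *Mrps12ep/ep* hearts without overlap (adjusted p = 0.247). In *Mrps12ep/ep* against *Mrps12+/+* hearts the genes without overlap were *Ptpn6* at 1.17 times and *Socs5* at 1.04 times, both with an adjusted p of 1.0. Without *Mrps12ha/ha* mouse 2, 10 pathway genes were called against *Mrps12+/+*, among 27% of all genes, and the adjusted p with limma was 0.0371 for *Bcl6*. It was 0.0249 for *Stat5a* and 0.00804 for *Irs2* against *Mrps12ep/ep*.

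The sex-biased liver genes were sparse in the heart, with 12 of 16 male-biased and 5 of 16 female-biased genes tested and none called by limma. Between *Mrps12ha/ha* and *Mrps12+/+* hearts 2 male-biased genes, 1 higher and 1 lower, had an unadjusted p under 0.05. So did 4 female-biased genes, 2 higher and 2 lower, beside 19.7% of all genes. *Gstp1* was 1.42 times higher in *Mrps12ha/ha* than in *Mrps12+/+* hearts (adjusted p = 0.221) and *Prom1*, a membrane protein gene, 2.79 times (adjusted p = 0.206). *Prom1* measured 99.4, 51.3 and 118 normalized counts in *Mrps12ha/ha*, 16.4, 33.7 and 45.9 in *Mrps12+/+* and 32.7, 26.7 and 34.5 in *Mrps12ep/ep* hearts, and the *Mrps12ha/ha* hearts were the highest of the 9. Without *Mrps12ha/ha* mouse 2 limma called 2 male-biased and 3 female-biased genes against *Mrps12+/+*, among 27% of all genes. The adjusted p was then 0.00761 for *Gstp1* and 0.0162 for *Prom1*. Against *Mrps12ep/ep*, where 23.2% of all genes were then called, it was 0.0214 for *Prom1*.

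For each member the genes with the most similar values over the 9 mice of a tissue were found by Pearson's r on the log2 scale. With so few mice and so many genes such values come out high, and the points share genotype and depth, so they are a description only. Over the livers the genes closest to *Ghr* were *6720427I07Rik* (r = 0.98), *Cat* (0.95) and *Cnnm3* (0.95), and those closest to *Stat5b* were *1110002J07Rik* (0.96), *0610031O16Rik* (0.96) and *N4bp2os* (0.96). *Socs2* was closest to *Bhmt2* (0.95), *Gm42764* (0.95) and *Eif4ebp3* (0.95), and *Cish* to *Ldb1* (0.95), *Ikzf4* (0.95) and *Esrp2* (0.94). *Igf1* was closest to *Zfp24* (0.98), *Pum2* (0.94) and *Gm48493* (0.93), *Igfals* to *Xpc* (0.97), *Rgs16* (0.97) and *AC169509.1* (0.96), and *Igfbp3* to *Gpr137b-ps* (0.92), *Col14a1* (0.92) and *Sod3* (0.92). *Igfbp2* was closest to *Oaz1* (0.98), *Trhde* (0.98) and *Cyp2u1* (0.98), *Mup3* to *Fn3k* (0.98), *Cfap20* (0.98) and *Marc1* (0.97), and *Mup20* to *Gm49359* (0.96), *Eif2a* (0.94) and *Gm6277* (0.91). No member was among the closest genes of another in the liver. The inhibitors *Socs2* and *Cish* had r = 0.74 with each other there and -0.24 in the heart.

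Over the hearts *Ghr* was closest to *Glg1*, *Dag1* and *Pdpk1* (all 0.99), *Stat5b* to *Slc41a1* (0.99), *Champ1* (0.99) and *Mapk10* (0.98), and *Igf1* to *Clba1* (0.96), *Parva* (0.95) and *D330025C20Rik* (0.95). *Socs2* was closest to *Yipf5* (0.96), *Dpp4* (0.96) and *Pla2g4a* (0.96), *Cish* to *Fam72a* (0.93), *Bak1* (0.90) and *Exog* (0.90), and *Igfbp3* to *Zfp580* (0.95), *Vps37d* (0.94) and *Capn10* (0.94). *Igfals* was closest to *Fdx1* (0.94), *Hpn* (0.93) and *Mrpl3* (0.93), and *Igfbp2* to *Pars2* (0.97), *Ccnyl1* (0.94) and *Itih2* (0.93). *Mup3* was closest to *Mup22* (0.99), *Mup20* (0.99) and the hepatocyte gene *Ttr* (0.99), and *Mup20* to *Mup22* (0.998), *Pklr* (0.99) and *Cyp2a12* (0.99), of which *Ttr* is one of the 8 hepatocyte genes summed above.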

How the data were processed

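Total RNA of hearts and livers was sequenced by the authors on the Illumina platform. The submitters' processing notes name Trim Galore 0.4.1 and Salmon 1.1.0, and the study's methods add GRCm38 with the GENCODE annotation and DESeq2. The deposited values are gene counts normalized by the authors with DESeq2 within a tissue, without mitochondrial transcripts, 1 column for each mouse. They are not raw counts, and heart and liver were compared only by scaled reads or by ratios within a sample. The authors' tables of their own comparisons hold fold changes and p-values and were not used.

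Low values were whole multiples of a column's smallest step in 100.0% of cases (tolerance 0.1 read), which gave back the reads for depth, RPKM on GENCODE exons and limma-voom. Genes with a mean of at least 10 were fitted as log2 of the value plus 1 with limma 3.58.1 under R 4.3.3, using eBayes with trend and one fit per tissue for the 3 genotypes, with a threshold of 0.05 after adjustment over all genes tested. The fit was also run on simulated counts of independent samples in which none stood apart, unlike these data, so that run does not bear on such samples. Intervals are 95%. Replicates are mice. Exact permutation tests went through every split of the mice compared, with numpy 2.4.6.

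The members and lists were chosen with earlier results of these data known. Named are all members, of the pathway and sex-biased lists each gene past 0.05 and, in each comparison and direction, up to 3 with the largest difference among those without overlap, and the 3 genes most similar to each member. A gene that this rule names is not reported here. Alternatives were pseudocounts of 0.1 and 8, no filter or a mean of at least 50, quantile normalization, only the genotypes compared, weights per mouse, a block of replicate numbers, each mouse left out and, chosen after seeing the data, limma-voom.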

Additional observations from a re-analysis of the deposited data

How the results depend on the processing

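Calls of members depended on a single heart. In the heart, members called between *Mrps12ha/ha* and *Mrps12+/+* numbered 0 to 2 with a mouse left out (2 without *Mrps12ha/ha* mouse 2) and 3 with array weights, and between the mutants 0 to 2 (2 without that mouse) and 3. Every other alternative run called none in any of the 6 comparisons. Over all genes the calls ranged from 3 to 5573 and from 3 to 6314 in these heart comparisons, from 0 to 90 and from 0 to 68 for *Mrps12ha/ha* and *Mrps12ep/ep* against *Mrps12+/+* livers, from 0 to 18 between the mutants' livers and from 0 to 3 between *Mrps12ep/ep* and *Mrps12+/+* hearts. Equal replicate numbers were taken not to pair the mice, which was an assumption. The correlations of their deviations ran from -0.13 to 0.16 in the liver and from -0.23 to 0.58 in the heart. For unequal numbers they ran from -0.29 to 0.16 and from -0.59 to 0.35. The highest values in the heart, 0.58 and 0.41, were those of equal-numbered *Mrps12+/+* and *Mrps12ep/ep* mice. With the replicate block no member was called (0 in each comparison), *Irs2* in the heart had an adjusted p of 0.0794, and with limma-voom 0.0916. The planned fits with edgeR and DESeq2 were not run, since the tables as deposited were not classed as counts, and limma-voom was fitted to the recovered reads in their place. The causes were not tested. Low read numbers of the gene limit the precision for *Igfbp2* in the heart, with 2 to 89 reads a heart.

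Of 87 log2 fold changes of members and named genes 67 kept their direction in every alternative, and those that did not were all of members and never called. With a mouse left out they ranged, for *Mrps12ha/ha* against *Mrps12+/+* livers, from -0.205 to 0.177 for *Igfbp3* and from -0.530 to 0.290 for *Mup20*. For *Mrps12ep/ep* against *Mrps12+/+* livers the ranges were -0.892 to 0.229 for *Socs2*, -0.361 to 0.744 for *Cish*, -0.109 to 0.145 for *Igf1*, -0.0593 to 0.462 for *Igfbp3* and -0.132 to 0.288 for *Mup20*. Between the mutants' livers they were -0.0640 to 0.0926 for *Ghr*, -0.118 to 0.0716 for *Stat5b*, -0.520 to 0.0261 for *Igfbp3*, -0.243 to 0.116 for *Igfbp2* and -0.596 to 0.224 for *Mup20*. For *Mrps12ha/ha* against *Mrps12+/+* hearts they were -0.954 to 0.244 for *Mup3* and -1.14 to 0.0595 for *Mup20*. For *Mrps12ep/ep* against *Mrps12+/+* hearts they were -0.0723 to 0.0385 for *Ghr*, -0.187 to 0.145 for *Stat5b*, -0.192 to 0.244 for *Socs2* and -0.201 to 0.392 for *Igf1*. Between the mutants' hearts they were -0.307 to 0.0523 for *Cish* and -1.63 to 0.222 for *Igfbp2*. Array weights reversed *Igfbp3* in *Mrps12ha/ha* against *Mrps12+/+* livers (0.099), *Ghr* (0.058), *Stat5b* (-0.029), *Socs2* (-0.021) and *Igf1* (-0.306) in *Mrps12ep/ep* against *Mrps12+/+* hearts, and *Igfbp2* (0.989) between the mutants' hearts. Quantile normalization reversed *Igf1* in *Mrps12ep/ep* against *Mrps12+/+* livers (-0.030) and *Ghr* in the same hearts (0.021).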
